A study of Mus musculus with 9 samples.

Results

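The genes described here are 41 genes of the core autophagy machinery with its cargo receptors, out of 29756 entries in the deposited table. They were taken by gene symbol from a list of known autophagy genes, and each symbol matched 1 entry. RNA was measured in 9 libraries of HT22 cells, an immortalised mouse hippocampal neuronal line, with 3 libraries in each of 3 groups that the labels call the intervention group (B), the experimental group (A) and the control group (C). Hemin, which is heme with oxidised iron, and a bioactive micelle called PPP8 are named in the title of the series. Which of them each group received, at what dose and for how long is not stated in the labels, and the groups are called here as the labels call them. HT22 is a single cell line, and the labels do not describe the replicates as separate cultures. All p-values are therefore set against the variation among these libraries alone, which may be technical.

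Autophagy is the process by which cells enclose cytoplasm in a growing double membrane, the autophagosome, and deliver it to lysosomes. A kinase complex built around ULK1 or ULK2 starts it, a lipid kinase complex marks the site with phosphatidylinositol 3-phosphate, and ATG9 vesicles and ATG2 lipid carriers enlarge the membrane. A conjugation system resembling that of ubiquitin then attaches the small proteins of the LC3 and GABARAP families to the membrane lipid phosphatidylethanolamine, a step called lipidation. Cargo receptors such as p62, the product of Sqstm1, bind both the cargo and the lipidated proteins. In neurons, which do not divide, autophagy is known for clearing damaged organelles and protein aggregates. The values below are mRNA levels, and neither lipidation nor the flow of cargo to lysosomes was measured.

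Values are FPKM (fragment counts divided by gene length and by the size of the library). They summed to between 316912 and 339943 per library. Between 11154 and 11732 entries per library reached 1 FPKM. Fewer cells of a kind and less RNA per cell cannot be told apart in such bulk samples. Of 16 neuronal markers, 2 (Tubb3 and Syn1) reached the level needed for testing, and Rbfox3, which encodes the mature neuron marker NeuN, averaged at most 0.0833 FPKM in a group. The neuronal markers summed to 10.1 to 12.3 FPKM in intervention, 13.3 to 13.4 in experimental and 13.6 to 18.4 in control libraries. The 2 tested ones differed in sign between experimental and control libraries: Syn1, a synaptic vesicle protein gene, averaged 2.83 FPKM in intervention, 3.02 in experimental and 6.01 in control libraries, and Tubb3, a neuronal tubulin gene, 6.89, 8.41 and 7.12. Syn1 was called lower in experimental against control libraries (adjusted p = 1.97e-05), and Tubb3 was not called as deposited (adjusted p = 0.0995) but was called higher after median-ratio scaling. Markers of microglia and blood summed to 3.71 to 6.06, 3.01 to 4.54 and 12.3 to 13.4 FPKM in the same order, and those of astrocytes to 2.32 to 3.94, 2.63 to 2.95 and 5.79 to 7.04. Slc1a3, the only astrocyte marker tested, averaged 2.43 FPKM in intervention, 2.10 in experimental and 5.27 in control libraries. It was called lower in experimental against control libraries (limma, adjusted p = 6.18e-06). Among the other defining markers of these cells, Ptprc averaged at most 0.00333 FPKM and Gfap at most 0.25 in a group. Of the microglial markers, Tmem119 averaged 1.63 FPKM in intervention, 0.93 in experimental and 10.3 in control libraries, and Cd68 averaged 2.003, 1.88 and 1.23. In experimental against control libraries Tmem119 was called lower (adjusted p = 4.81e-08) and Cd68 higher (adjusted p = 0.0071), so the higher control sum comes from Tmem119. The part of these marker differences in the results below was not tested.

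The experimental libraries were first compared with the control libraries. Experimental cells held 8.06 times as much Sqstm1 mRNA, more of the GABARAP family member Gabarapl1, and more Wipi2, Atg14, Atg16l1 and Ulk1. They held less Ulk2, Wipi1, Atg4c, Stx17, Pik3r4, Calcoco1, Atg9a and Atg7. Of the 41 genes, 40 reached 1 FPKM in at least 3 of the 9 libraries and were tested with limma together with all other such entries. At an adjusted p under 0.05, 12 of the 40 were higher and 16 lower, against 23.5% of all 11974 tested entries called higher and 50.5% called lower. The median difference was 0.0082 log2 units for the 40 genes and -0.21 for all tested entries. The median of the 40 genes lay between -0.011 and 0.030 when 1 library was left out, moved by over 1.5 times without any of the experimental or control libraries, and was negative without control replicate 1 or control replicate 3. All differences are on the log2(FPKM + 1) scale, which understates the change of genes with low FPKM. Experimental values lay wholly above control values for 15 of the 40 genes and wholly below for 16. Such separation was common, since of all 11974 tested entries 2956 lay wholly above and 6164 wholly below.

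Scaling between libraries decides part of these calls. After median-ratio scaling, which brings the median of all tested entries to 0.0029, 22 of the 40 genes were called higher and 9 lower, against 36.6% and 36.4% of all entries. The median of the 40 genes was then 0.24. All 12 genes called higher as deposited were still called higher, and 10 more joined them, namely Atg13, Rb1cc1, Becn1, Vmp1, Wdr45, Atg12, Map1lc3b, Nbr1, Tbk1 and Epg5. Of the 16 called lower, 7 lost the call, namely Pik3c3, Atg3, Atg4b, Map1lc3a, Gabarap, Gabarapl2 and Optn, and the differences of Pik3c3 and Atg3 turned slightly positive (0.045 and 0.030). Across the 18 alternative settings tried, 19 of the 28 genes kept both call and direction wherever they were tested.

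**Figure D1:**
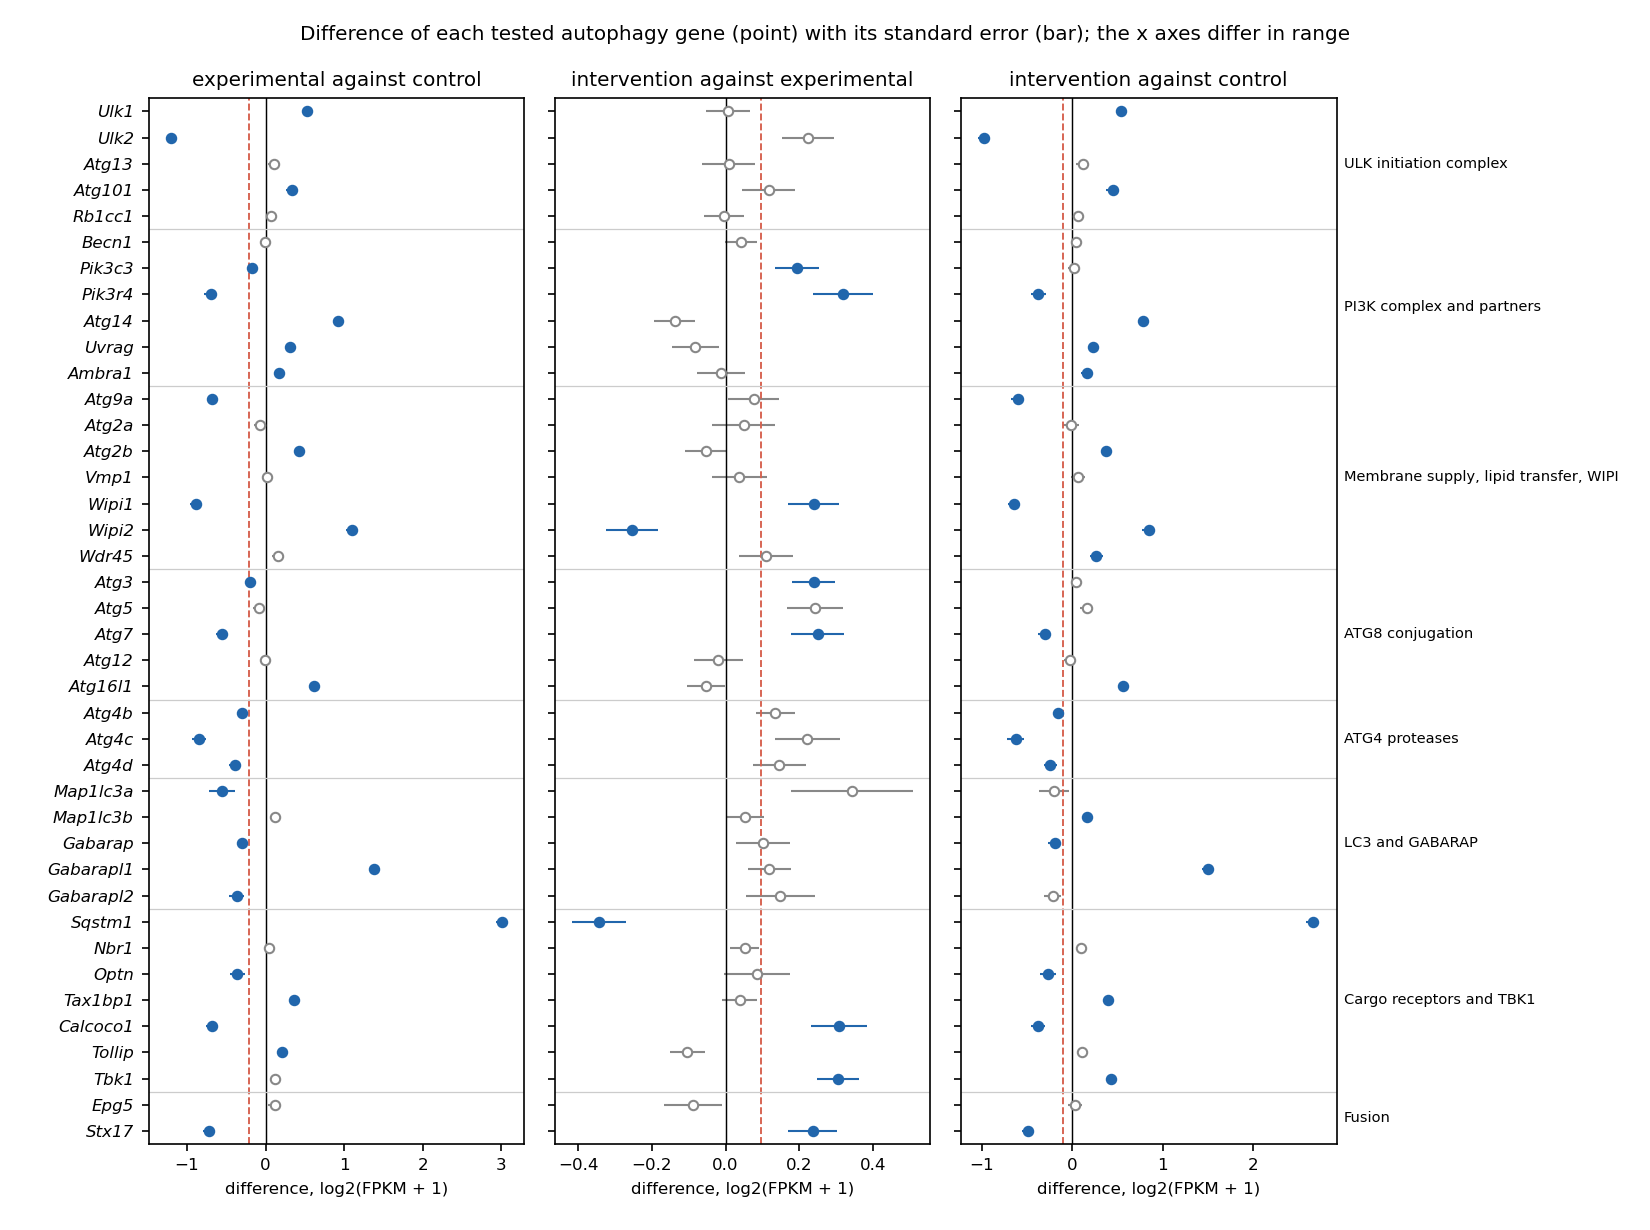
Difference of each of the 40 tested autophagy genes on the log2(FPKM + 1) scale (x axis, with a different range in each panel) for the 3 comparisons, ordered by role. Points are limma estimates and bars their standard errors, filled blue points passed an adjusted p under 0.05, the solid line marks no difference and the dashed red line the median of all 11974 tested entries. Sqstm1 is the highest gene in both comparisons with control and the lowest in intervention against experimental, where Pik3r4 at 0.32 is the highest called gene.

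The promoter windows below belong to the genes with the largest differences between experimental and control libraries, namely Sqstm1, Gabarapl1, Ulk2 and Wipi2, together with Atg14, and are shown because these genes moved in different directions. Each window runs 5′ to 3′ on the gene's own strand from 250 bases before to 50 bases after the annotated start, from RefSeq on GRCm38.p6, the assembly known as mm10. Capitals mark matches to motifs searched on both strands.
Sqstm1 (chr11:50210771-50211070, minus strand): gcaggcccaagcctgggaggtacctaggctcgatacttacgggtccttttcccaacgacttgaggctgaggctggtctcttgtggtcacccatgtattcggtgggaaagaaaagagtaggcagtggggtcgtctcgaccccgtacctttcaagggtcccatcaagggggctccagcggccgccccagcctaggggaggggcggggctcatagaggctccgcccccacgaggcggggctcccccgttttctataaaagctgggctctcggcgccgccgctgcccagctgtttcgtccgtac
Gabarapl1 (chr6:129532942-129533241, plus strand): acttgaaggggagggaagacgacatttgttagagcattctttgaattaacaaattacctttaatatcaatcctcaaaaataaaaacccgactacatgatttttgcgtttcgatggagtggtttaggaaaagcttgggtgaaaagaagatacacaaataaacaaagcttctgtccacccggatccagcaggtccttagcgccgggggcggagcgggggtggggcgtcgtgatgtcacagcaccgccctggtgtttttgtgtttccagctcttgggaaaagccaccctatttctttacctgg
Wipi2 (chr5:142629334-142629633, plus strand): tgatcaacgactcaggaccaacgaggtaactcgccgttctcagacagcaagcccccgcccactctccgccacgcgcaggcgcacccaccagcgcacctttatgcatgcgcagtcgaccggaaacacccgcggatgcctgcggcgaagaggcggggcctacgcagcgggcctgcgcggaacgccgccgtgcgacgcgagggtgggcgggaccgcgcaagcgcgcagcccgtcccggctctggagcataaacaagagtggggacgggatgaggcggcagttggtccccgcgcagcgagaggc
Ulk2 (chr11:61855043-61855342, minus strand): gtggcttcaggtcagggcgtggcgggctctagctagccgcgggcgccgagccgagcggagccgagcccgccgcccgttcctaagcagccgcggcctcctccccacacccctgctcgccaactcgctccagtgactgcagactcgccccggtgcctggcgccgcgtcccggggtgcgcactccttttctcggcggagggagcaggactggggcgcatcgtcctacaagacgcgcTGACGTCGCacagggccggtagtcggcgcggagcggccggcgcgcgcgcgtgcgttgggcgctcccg
Atg14 (chr14:47568385-47568684, minus strand): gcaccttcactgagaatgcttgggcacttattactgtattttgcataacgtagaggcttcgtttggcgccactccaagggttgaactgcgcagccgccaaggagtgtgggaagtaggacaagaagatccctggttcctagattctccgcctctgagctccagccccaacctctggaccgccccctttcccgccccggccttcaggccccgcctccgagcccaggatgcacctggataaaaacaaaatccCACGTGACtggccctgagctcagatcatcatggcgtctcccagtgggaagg

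The motifs were TGACNNNGC, the core of the antioxidant response element, TGATGNAA, an ATF4-type element, GTCACGTG, the core of the element of lysosomal and autophagy genes bound by TFEB, and GAANNTTC, a pair of heat shock units. The Sqstm1, Gabarapl1 and Wipi2 windows held none of the 4. In the Ulk2 window TGACGTCGC, a match to the first, began 17 bases before the start, and in the Atg14 window CACGTGAC, the reverse strand of the third, began 1 base before it. RefSeq windows were found for 34 of the 41 genes, 39 windows in all. The first motif was in 7 of the 39 (17.9%), against 12.4% of all 32851 windows of that length. These 7 windows came from 5 genes, Atg13, Map1lc3b, Tax1bp1, Ulk2 and Vmp1, with a match in each of the several Vmp1 windows. The second was in 0 of the 39, against 3.97%. The third was in 4 of the 39 (10.3%), in Atg14, Atg3, Atg7 and Tbk1, against 2.25% of all windows. Several windows, among them those of Atg7, Atg14, Wipi2 and Wdr45, lie at RefSeq starts inside the gene spans of the GENCODE annotation. The spans of these 4 genes begin upstream, at 114643097 for Atg7 (plus strand) and at 47570649 for Atg14 (minus strand). They begin at 142627698 for Wipi2 and at 7714333 for Wdr45 (both plus strand). The fourth was in 3 (7.69%), in Optn, Vmp1 and Wdr45, against 7.86%. No matches in these windows overlapped each other. The 4 genes with GTCACGTG did not share a direction, since between experimental and control libraries Atg14 rose and Atg7 fell, Atg3 fell as deposited but turned slightly positive after median-ratio scaling, and Tbk1 differed by 0.12 (adjusted p = 0.076). A match describes letters only, and a window without a match says nothing about a factor.

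Among the cargo receptors, p62 stood apart. Sqstm1 had 801, 984 and 927 FPKM in intervention libraries, 1179.8, 1085 and 1169 in experimental libraries and 144, 145 and 137 in control libraries. The experimental and intervention values all lay far above the control values, and the experimental values lay above the intervention values without overlap. Sqstm1 (chromosome 11, 50199366 to 50210827, minus strand of mm10) encodes the receptor that gathers ubiquitinated cargo, and it also binds KEAP1, the inhibitor of the transcription factor NRF2. Its mean was 8.06 times the control mean in the experimental group and 6.36 times in the intervention group. The difference between experimental and control libraries was 3.001 log2 units (SE 0.074, adjusted p = 3.61e-09). By mean FPKM it ranked 46th of all entries in the intervention group, 34th in the experimental group and 261st in the control group. Its exons share 580 bases with Mrnip on the opposite strand, but Mrnip averaged 0.75 FPKM over all libraries.

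The other receptors moved little beside Sqstm1. Tax1bp1, a ubiquitin-binding receptor, had 20.9 ± 0.32 FPKM in intervention, 20.3 ± 0.364 in experimental and 15.6 ± 0.75 in control libraries (SD, n = 3 each), and rose by 0.36 log2 units (SE 0.048, adjusted p = 6.19e-05) in experimental against control libraries. Tollip, an adaptor with a ubiquitin-binding domain, had 21.1 ± 0.89 FPKM in intervention, 22.7 ± 0.687 in experimental and 19.5 ± 0.291 in control libraries and rose by 0.21 (adjusted p = 0.00227). Calcoco1 had 8.8, 7.81 and 8.84 FPKM in intervention libraries, 6.05, 7.32 and 6.63 in experimental libraries and 12.1, 10.7 and 11.2 in control libraries. Calcoco1, a receptor for endoplasmic reticulum and Golgi, was lower in all 6 experimental and intervention libraries than in any control library. It fell by 0.69 log2 units (SE 0.076, adjusted p = 1.87e-05) in experimental against control libraries. Optn, a receptor for ubiquitinated bacteria and mitochondria, had 4.89 ± 0.433 FPKM in intervention, 4.56 ± 0.43 in experimental and 6.13 ± 0.698 in control libraries, a difference of -0.36 (adjusted p = 0.00438) that was not called after median-ratio scaling (adjusted p = 0.129). Nbr1, a p62-related receptor, had 30.4 ± 0.0866 FPKM in intervention, 29.3 ± 0.548 in experimental and 28.4 ± 0.314 in control libraries and was not called (adjusted p = 0.355), though it was called higher after median-ratio scaling. Tbk1, the kinase that phosphorylates several receptors, was likewise not called in this comparison (adjusted p = 0.076) but was called higher after that scaling.

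Summed over all 41 genes, FPKM was 1570.1 ± 77.3 in intervention, 1770.0 ± 39.8 in experimental and 737 ± 18.8 in control libraries (SD, n = 3 each). Sqstm1 alone made up 57.5 ± 3.25%, 64.6 ± 1.5% and 19.3 ± 0.223% of that sum in the same order. Without Sqstm1 the sums were 666 ± 19.2, 626 ± 12.4 and 595 ± 14.8 FPKM. The 5 receptors Nbr1, Optn, Tax1bp1, Calcoco1 and Tollip together summed to 85.7 ± 0.421, 83.6 ± 1.58 and 81 ± 0.877 FPKM. These sums are on the scale as deposited and were not tested.

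In the LC3 and GABARAP family, whose proteins are the ones attached to the membrane, Gabarapl1 rose while, as deposited, its 4 relatives were lower or not called. Gabarapl1 had 112, 108 and 100.2 FPKM in intervention libraries, 98, 99.5 and 96.9 in experimental libraries and 36.8, 35.1 and 39.8 in control libraries. All 6 experimental and intervention values lay far above the control values. The intervention values lay just above the experimental values, a difference that was not called with limma (adjusted p = 0.159). The difference between experimental and control libraries was 1.38 log2 units (SE 0.058, adjusted p = 5.4e-08). Gabarapl1 lies on chromosome 6, 129533160 to 129542346, plus strand of mm10, and its exons share 570 bases with 1700101I11Rik on the other strand, an entry that averaged 0.661 FPKM over all libraries. Gabarap had 144.9, 133.5 and 133.8 FPKM in intervention libraries, 129.7, 131.0 and 123.2 in experimental libraries and 151.9, 177.0 and 145.2 in control libraries. The control values lay above all experimental and all intervention values. Gabarap fell by 0.30 log2 units (SE 0.072, adjusted p = 0.00371) as deposited, and was no longer called once median-ratio scaling was applied (-0.046, adjusted p = 0.553).

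Gabarapl2 had 15 ± 2.29 FPKM in intervention, 13.4 ± 0.836 in experimental and 17.5 ± 0.866 in control libraries, with a difference of -0.37 between experimental and control libraries (adjusted p = 0.00498, and 0.196 after median-ratio scaling). Map1lc3a had 4.16, 4.2 and 3.41 FPKM in intervention libraries, 2.09, 4.27 and 2.55 in experimental libraries and 4.91, 4.81 and 4.3 in control libraries. One experimental library, replicate 2, sat near the control values and the others well below them. Map1lc3a encodes LC3A and differed by -0.55 log2 units (SE 0.17, adjusted p = 0.0119), and was no longer called once median-ratio scaling was applied (adjusted p = 0.068). Map1lc3b, which encodes LC3B, the usual marker of autophagosomes, had 23.6 ± 1.28 FPKM in intervention, 22.7 ± 0.08 in experimental and 20.9 ± 0.85 in control libraries. Its difference of 0.11 was not called as deposited (adjusted p = 0.07) and was called higher after median-ratio scaling (0.36, adjusted p = 7.23e-05). Map1lc3b and Gabarapl2 have near-identical transcripts at 4 and 3 other genes of the annotation (at least 95% identity over at least 200 bases), and how the authors' counting treated these is not given in the sources used here, so both are uncertain as single genes.

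The make-up of the family's mRNA therefore differed between groups. Gabarapl1 made up 37.2 ± 0.745% of the summed FPKM of the 5 genes in intervention, 37 ± 0.477% in experimental and 15.7 ± 1.97% in control libraries. Gabarap made up 47.9 ± 1.04%, 48.3 ± 0.515% and 66.2 ± 2.38%, and Map1lc3b 8.24 ± 0.047%, 8.58 ± 0.242% and 8.8 ± 0.27%. Such shares within a library do not depend on the scaling between libraries. They are given as a description.

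**Figure D2:**
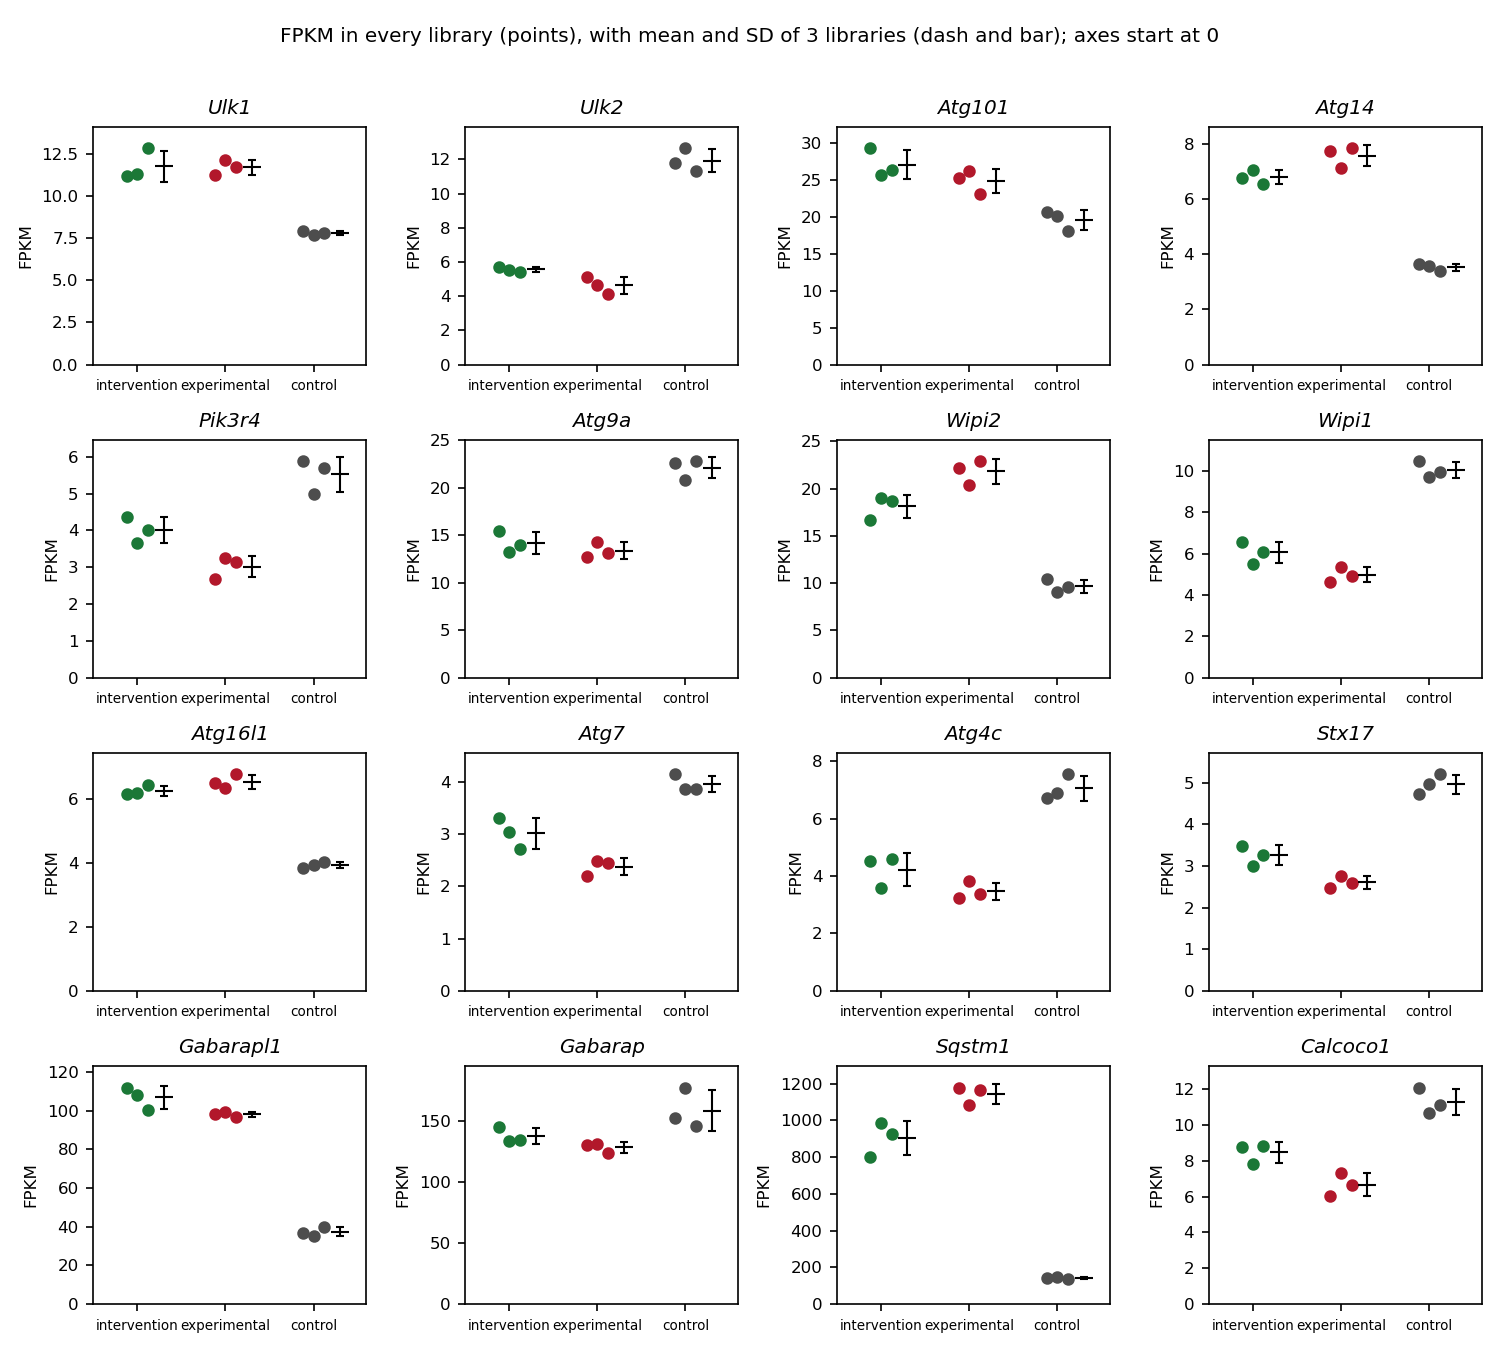
FPKM (y axis, from 0) of 16 autophagy genes in each of the 9 libraries, with 1 point per library and a dash and bar for the mean and SD of 3 libraries. Sqstm1 and Gabarapl1 stand far above the control libraries in both other groups, Ulk2, Wipi1, Atg4c and Stx17 below them, and Ulk1 and Ulk2, like Wipi2 and Wipi1, differ in opposite directions.

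In the initiation complex the kinases ULK1 and ULK2 went opposite ways. Ulk1 had 11.2, 11.3 and 12.8 FPKM in intervention libraries, 11.2, 12.1 and 11.7 in experimental libraries and 7.89, 7.66 and 7.78 in control libraries. Ulk2 had 5.72, 5.54 and 5.43 FPKM in intervention libraries, 5.1, 4.67 and 4.12 in experimental libraries and 11.8, 12.7 and 11.3 in control libraries. For each kinase the control values were separate from all 6 others, below them for Ulk1 and above them for Ulk2. Ulk1 (chromosome 5, 110784488 to 110810097, minus strand of mm10) rose by 0.53 log2 units (SE 0.060, adjusted p = 2.05e-05) in experimental against control libraries. Ulk2 (chromosome 11, 61775649 to 61855073, minus strand) fell by 1.202 log2 units (SE 0.071, adjusted p = 3.15e-07), the largest decrease among the 40 genes.

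The partners of the kinases changed less. Atg101 had 29.3, 25.7 and 26.3 FPKM in intervention libraries, 25.3, 26.3 and 23.1 in experimental libraries and 20.6, 20.2 and 18 in control libraries. All control values of this gene, whose product stabilises ATG13, lay below all others, and it rose by 0.33 log2 units (SE 0.072, adjusted p = 0.00198). Atg13, the subunit that links the kinase to the rest of the complex, had 10.5 ± 0.536 FPKM in intervention, 10.4 ± 1.07 in experimental and 9.58 ± 0.267 in control libraries and was not called (adjusted p = 0.202). Rb1cc1, which encodes the scaffold FIP200, had 8.27 ± 0.429 FPKM in intervention, 8.3 ± 0.393 in experimental and 7.86 ± 0.0889 in control libraries and was not called either (adjusted p = 0.274). After median-ratio scaling Atg13 and Rb1cc1 were called higher, by 0.34 and 0.29.

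In the lipid kinase complex, Atg14 rose and Pik3r4 fell, while Becn1 moved little as deposited. Atg14 had 6.75, 7.06 and 6.56 FPKM in intervention libraries, 7.76, 7.13 and 7.85 in experimental libraries and 3.64, 3.57 and 3.39 in control libraries. Pik3r4 had 4.36, 3.66 and 4.02 FPKM in intervention libraries, 2.69, 3.24 and 3.13 in experimental libraries and 5.88, 4.99 and 5.7 in control libraries. The control values of Atg14 were all below, and those of Pik3r4 all above, the 6 others. Atg14 encodes the subunit that directs the complex to sites where autophagosomes form, and rose by 0.92 log2 units (SE 0.057, adjusted p = 3.99e-07). Pik3r4 encodes VPS15, the regulatory subunit of the lipid kinase, and fell by 0.70 log2 units (SE 0.083, adjusted p = 2.86e-05).

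Becn1 had 14.8, 14.7 and 14.5 FPKM in intervention libraries, 14.2, 14.6 and 13.9 in experimental libraries and 14.1, 14.5 and 14.2 in control libraries. Experimental and control values overlapped, with the intervention values just above the control values, for this gene, which encodes Beclin 1, the subunit on which ATG14 assembles. It differed by -0.0065 as deposited (adjusted p = 0.897) and was called higher by 0.23 after median-ratio scaling. Pik3c3, the catalytic subunit VPS34, had 8.14 ± 0.346 FPKM in intervention, 6.99 ± 0.41 in experimental and 8.04 ± 0.396 in control libraries. It was called lower in experimental against control libraries as deposited (-0.18, adjusted p = 0.0199), with its direction turned by median-ratio scaling. That call was lost without experimental replicate 1, experimental replicate 3 or control replicate 2 (adjusted p up to 0.0789). Uvrag, which replaces ATG14 in the endosomal form of the complex, had 9.29 ± 0.595 FPKM in intervention, 9.9 ± 0.653 in experimental and 7.76 ± 0.296 in control libraries and rose by 0.31 (adjusted p = 0.00125). Ambra1, a regulator that binds Beclin 1, had 10.9 ± 0.326 FPKM in intervention, 11 ± 0.235 in experimental and 9.67 ± 0.938 in control libraries and rose by 0.18 (adjusted p = 0.0327), a call lost when any 1 experimental library, control replicate 1 or control replicate 2 was left out (adjusted p up to 0.103).

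Among the proteins that supply and shape the membrane, the WIPI proteins, which bind phosphatidylinositol 3-phosphate, went in opposite directions. Wipi2 had 16.7, 19 and 18.7 FPKM in intervention libraries, 22.2, 20.4 and 22.9 in experimental libraries and 10.4, 9.01 and 9.61 in control libraries. Wipi1 had 6.58, 5.52 and 6.09 FPKM in intervention libraries, 4.65, 5.36 and 4.93 in experimental libraries and 10.5, 9.71 and 9.95 in control libraries. Control libraries held about as much of each, whereas every experimental and intervention library held more Wipi2 than Wipi1. Wipi2 (chromosome 5, 142627698 to 142670588, plus strand of mm10), whose product recruits ATG16L1, rose by 1.097 log2 units (SE 0.070, adjusted p = 4.78e-07). Wipi1 (chromosome 11, 109573331 to 109611967, minus strand) fell by 0.89 log2 units (SE 0.070, adjusted p = 1.75e-06). Wdr45, the relative WIPI4, had 11 ± 0.285 FPKM in intervention, 10.2 ± 0.935 in experimental and 9.04 ± 0.741 in control libraries and was not called (adjusted p = 0.0804) except after median-ratio or quantile scaling.

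Atg9a had 15.4, 13.2 and 13.9 FPKM in intervention libraries, 12.7, 14.3 and 13.2 in experimental libraries and 22.6, 20.8 and 22.8 in control libraries. Every control value exceeded every other value of this gene, whose product is the lipid scramblase of the vesicles that seed the membrane. Atg9a fell by 0.68 log2 units (SE 0.069, adjusted p = 9.07e-06) in experimental against control libraries. Its exons share bases with Ankzf1 and Gm29253, which averaged 3.40 and 1.91 FPKM over all libraries. Of these overlaps 1 is on the same strand and 1 on the opposite strand. Atg2b and Atg2a encode the lipid carriers. Atg2b had 10.8 ± 0.665 FPKM in intervention, 11.2 ± 0.266 in experimental and 8.05 ± 0.345 in control libraries and rose by 0.43 (adjusted p = 6.09e-05). Atg2a had 9.997 ± 0.735 FPKM in intervention, 9.63 ± 0.651 in experimental and 10.2 ± 1.17 in control libraries and was not called (adjusted p = 0.495). Vmp1, a scramblase of the endoplasmic reticulum that acts with ATG2, had 10.9 ± 1.08 FPKM in intervention, 10.6 ± 0.498 in experimental and 10.4 ± 0.662 in control libraries and was not called as deposited (adjusted p = 0.792).

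The lipidation genes split as well. Atg16l1 had 6.17, 6.19 and 6.45 FPKM in intervention libraries, 6.51, 6.34 and 6.78 in experimental libraries and 3.84, 3.93 and 4.05 in control libraries. Atg7 had 3.3, 3.04 and 2.71 FPKM in intervention libraries, 2.19, 2.49 and 2.44 in experimental libraries and 4.14, 3.87 and 3.87 in control libraries. Again the control values were separate from all others, at the low end for Atg16l1 and at the high end for Atg7. Atg16l1, which brings the conjugation enzymes to the membrane, rose by 0.61 log2 units (SE 0.051, adjusted p = 2.6e-06). Atg7, the activating enzyme of both conjugation reactions, fell by 0.56 log2 units (SE 0.073, adjusted p = 5.64e-05).

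Atg5 had 14.7, 14.5 and 14.2 FPKM in intervention libraries, 13.3, 12.3 and 10.7 in experimental libraries and 12, 13.9 and 12.8 in control libraries. The experimental and control values of Atg5, whose product is joined to ATG12, overlapped (adjusted p = 0.33). Atg12 had 6.52 ± 0.325 FPKM in intervention, 6.62 ± 0.263 in experimental and 6.67 ± 0.595 in control libraries, and its difference of -0.0078 (adjusted p = 0.921) became 0.21 and was called after median-ratio scaling. Atg3, the enzyme that transfers LC3 to the lipid, had 10.8 ± 0.37 FPKM in intervention, 8.99 ± 0.562 in experimental and 10.5 ± 0.492 in control libraries, with a difference of -0.20 (adjusted p = 0.0107) that median-ratio scaling turned to 0.030. Atg10, the enzyme that joins ATG12 to ATG5, was the gene too low to test, at 0.57, 0.58 and 0.51 FPKM in intervention, 0.46, 0.32 and 0.33 in experimental and 0.61, 0.89 and 0.72 in control libraries.

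The 3 ATG4 protease genes, whose products trim LC3 and GABARAP before lipidation and release them afterwards, were called lower as deposited. Atg4c had 4.51, 3.57 and 4.58 FPKM in intervention libraries, 3.22, 3.81 and 3.36 in experimental libraries and 6.71, 6.9 and 7.54 in control libraries. Atg4b had 5.68, 5.37 and 5.63 FPKM in intervention libraries, 5.18, 4.91 and 4.83 in experimental libraries and 6.62, 6.19 and 6.18 in control libraries. All control values of each gene lay above the 6 others. Atg4c fell by 0.85 log2 units (SE 0.089, adjusted p = 1.15e-05), Atg4b by 0.30 (adjusted p = 0.000578) and Atg4d by 0.39 (adjusted p = 0.000647). The call of Atg4b did not survive median-ratio scaling (adjusted p = 0.202) and that of Atg4d did not survive quantile normalization. Atg4d had 4.04 ± 0.0306 FPKM in intervention, 3.57 ± 0.416 in experimental and 4.97 ± 0.207 in control libraries. It shares exon bases with Kri1 on the other strand, which averaged 8.46 FPKM over all libraries, more than Atg4d itself, and without stated strand use the reads of this pair cannot be told apart.

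For fusion with the lysosome, Stx17 encodes the SNARE protein of the finished autophagosome and Epg5 a tether. Stx17 had 3.49, 3.01 and 3.26 FPKM in intervention libraries, 2.46, 2.77 and 2.59 in experimental libraries and 4.74, 4.96 and 5.2 in control libraries. Epg5 had 4.34, 4.66 and 4.52 FPKM in intervention libraries, 4.91, 4.77 and 4.89 in experimental libraries and 4.91, 3.77 and 4.62 in control libraries. Control values of Stx17 were above all others, while those of Epg5 spanned the experimental values. Stx17 fell by 0.73 log2 units (SE 0.067, adjusted p = 4.75e-06) and Epg5 was not called (adjusted p = 0.209).

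**Figure D3:**
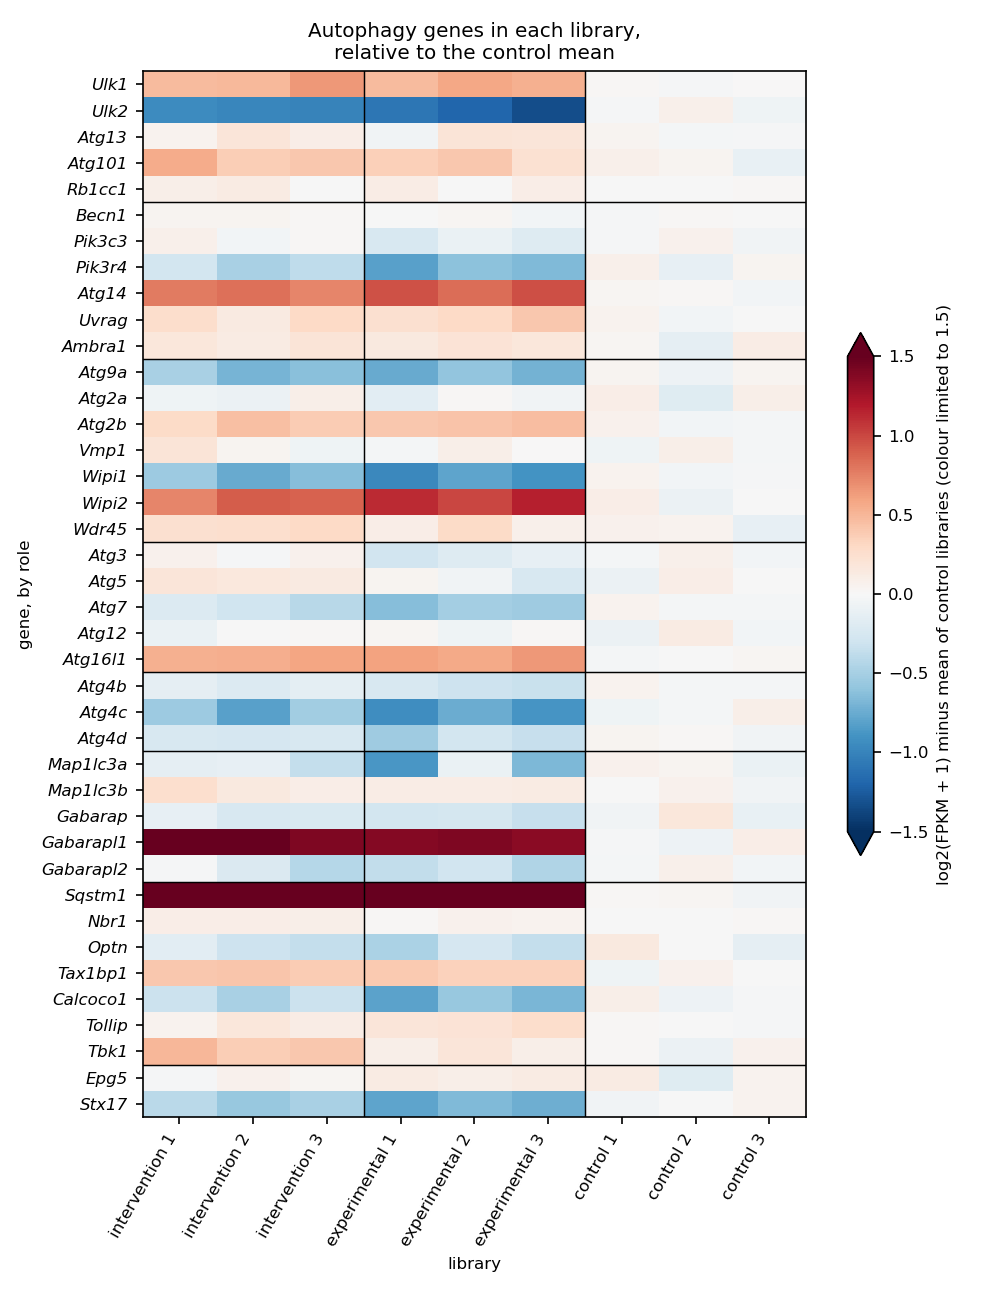
Log2(FPKM + 1) of the 40 tested autophagy genes in each of the 9 libraries, minus the mean of the control libraries, with red for higher and blue for lower and the colour limited to 1.5 log2 units. Rows are ordered by role, and most rows show 1 colour across all 6 experimental and intervention libraries, as in Gabarapl1, Atg14 and Wipi2 in red and Ulk2, Wipi1 and Atg4c in blue.

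Intervention libraries were then compared with experimental libraries. Differences were small, the largest among called genes being -0.34 log2 units. Sqstm1 and Wipi2 were lower in the intervention group, and Tbk1, Calcoco1, Pik3r4, Atg3, Atg7, Wipi1, Stx17 and Pik3c3 higher. With limma, 8 of the 40 genes were called higher, against 15.9% of all tested entries, and 2 lower, against 3.6%. Intervention values lay wholly above experimental values for 15 of the 40 genes and wholly below for 5. The same held for 4030 and 1053 of all 11974 tested entries. The median difference was 0.0805 log2 units for the 40 genes and 0.095 for all tested entries. The median of the 40 genes lay between 0.048 and 0.12 when 1 library was left out, the lowest values being 0.048 without intervention replicate 1 and 0.051 without experimental replicate 1. After median-ratio scaling 1 gene, Tbk1, was called higher, against 4.74% of entries, and 4 lower, namely Sqstm1, Wipi2, Atg14 and Tollip, against 7.9%.

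Those calls depended on which libraries were in the fit. None of the 40 genes was called without intervention replicate 1, without experimental replicate 1 or without experimental replicate 3. The calls over all 11974 entries fell as well, to 3 higher and 3 lower, 1 and 0, and 4 and 0 in these 3 fits. At an unadjusted limma p under 0.05, 10, 11 and 10 of the 40 genes were higher and 2 lower in each case. Of all entries, 3161, 3355 and 3375 passed that threshold in either direction. Of the 40 genes, 2 were called higher and 1 lower without intervention replicate 3. There were 4 and 2 without control replicate 1, and 5 and 2 without control replicate 3. Over all entries the calls in these latter fits were 771 and 168, 1391 and 332, and 1729 and 399. The 10 genes kept their direction in every alternative setting in which they were tested. The comparison shares the experimental libraries with the one above.

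Sqstm1 fell by 0.34 log2 units (SE 0.074, adjusted p = 0.0189) in intervention against experimental libraries, with 801, 984 and 927 FPKM in intervention and 1179.8, 1085 and 1169 in experimental libraries. Its call held after median-ratio scaling (adjusted p = 0.0191). Wipi2 differed by -0.25 log2 units (SE 0.070, adjusted p = 0.0341), with 16.7, 19 and 18.7 FPKM in intervention and 22.2, 20.4 and 22.9 in experimental libraries. For both genes every intervention value was below every experimental value.

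Tbk1 had 34, 31 and 31.7 FPKM in intervention libraries, against 25.4, 27.1 and 25.3 in experimental and 24, 22.3 and 24.9 in control libraries. The intervention libraries lay above both other groups without overlap. Tbk1 was higher than in experimental libraries by 0.30 log2 units (SE 0.057, adjusted p = 0.0156). Calcoco1 was higher by 0.31 (adjusted p = 0.0261) and Pik3r4 by 0.32 (adjusted p = 0.0295). Atg3 was higher by 0.24, Atg7 by 0.25, Wipi1 by 0.24, Stx17 by 0.24 and Pik3c3 by 0.19 (adjusted p from 0.0254 to 0.0469). After median-ratio scaling these 7 genes were no longer called, with differences from 0.091 to 0.23. None of the LC3 and GABARAP genes, the ULK complex genes or the ATG4 genes was called as deposited with limma, and 3 of them (Ulk2, Atg4b and Atg4c) had an unadjusted p under 0.05. For Gabarapl1 the difference was 0.12 (adjusted p = 0.159) and for Ulk2 it was 0.22 (adjusted p = 0.0511).

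Intervention libraries were last compared with the same control libraries as above. Sqstm1, Gabarapl1, Wipi2, Atg14, Atg16l1 and Ulk1 were higher in intervention libraries, and Ulk2, Wipi1, Atg4c, Atg9a and Stx17 were lower. With limma 14 of the 40 genes were called higher and 12 lower, against 24.1% and 41.1% of all tested entries. Intervention values lay wholly above control values for 19 of the 40 genes and wholly below for 13. The same held for 3086 and 5135 of all 11974 tested entries. The median difference was 0.050 for the 40 genes and -0.10 for all tested entries. After median-ratio scaling 23 were called higher and 8 lower, against 32.7% and 32.4%, with medians of 0.17 and 0.0094.

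Sqstm1 differed by 2.66 log2 units (SE 0.074, adjusted p = 9.75e-09) and Gabarapl1 by 1.496 log2 units (SE 0.058, adjusted p = 5.4e-08). Wipi2 differed by 0.84, Atg14 by 0.78, Atg16l1 by 0.56 and Ulk1 by 0.54 (adjusted p at most 2.98e-05). On the lower side Ulk2 differed by -0.98, Wipi1 by -0.65, Atg4c by -0.63, Atg9a by -0.61 and Stx17 by -0.49 (adjusted p at most 0.000144). Calcoco1 at -0.38, Pik3r4 at -0.38 and Atg7 at -0.31 were also called lower (adjusted p at most 0.0039).

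Tbk1, Wdr45 and Map1lc3b were called higher in this comparison. Tbk1 differed by 0.43 (adjusted p = 0.000102) and Wdr45 by 0.26 (adjusted p = 0.00929). Map1lc3b differed by 0.17 (adjusted p = 0.0164), a call lost without intervention replicate 1 or control replicate 3 (adjusted p up to 0.0609). Atg101, Tax1bp1, Atg2b, Uvrag and Ambra1 were called higher too, by 0.16 to 0.45. The call of Ambra1 (adjusted p = 0.049) was lost in 8 of the 9 fits that left out a library. Atg4b, Atg4d, Gabarap and Optn completed the 12 lower genes, at -0.27 to -0.16, and all 4 lost their call after median-ratio scaling. Of these, Gabarap lost its call without intervention replicate 2, intervention replicate 3 or control replicate 2, Optn without intervention replicate 2, intervention replicate 3 or control replicate 1, and Atg4b without intervention replicate 2 or control replicate 1 (adjusted p up to 0.0994).

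Ratios of related genes within a library are free of the scaling between libraries, and these pairs were chosen after their values were seen, so they carry no test. Ulk1 over Ulk2 was 1.95 to 2.36 in intervention, 2.2 to 2.84 in experimental and 0.605 to 0.686 in control libraries. Ulk1 was thus the more abundant kinase mRNA in the first 6 libraries and Ulk2 in the control libraries. Wipi2 over Wipi1 was 2.54 to 3.43, 3.8 to 4.77 and 0.928 to 0.991 in the same order, with no overlap between any groups. Atg2b over Atg2a was 0.995 to 1.2, 1.09 to 1.23 and 0.73 to 0.888. Intervention and experimental libraries overlapped in that ratio.

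Gabarapl1 over Gabarap was 0.749 to 0.81 in intervention, 0.756 to 0.786 in experimental and 0.198 to 0.274 in control libraries. Map1lc3b over Map1lc3a was 5.54 to 6.62, 5.32 to 10.8 and 4.24 to 4.69, the widest spread being in the experimental libraries. Sqstm1 over Nbr1, the other ubiquitin receptor with the same type of dimerisation domain, was 26.3 to 32.4, 36.5 to 41.2 and 4.77 to 5.16. Every library thus held more Sqstm1 than Nbr1 mRNA per length, and the groups did not overlap in this ratio.

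**Figure D4:**
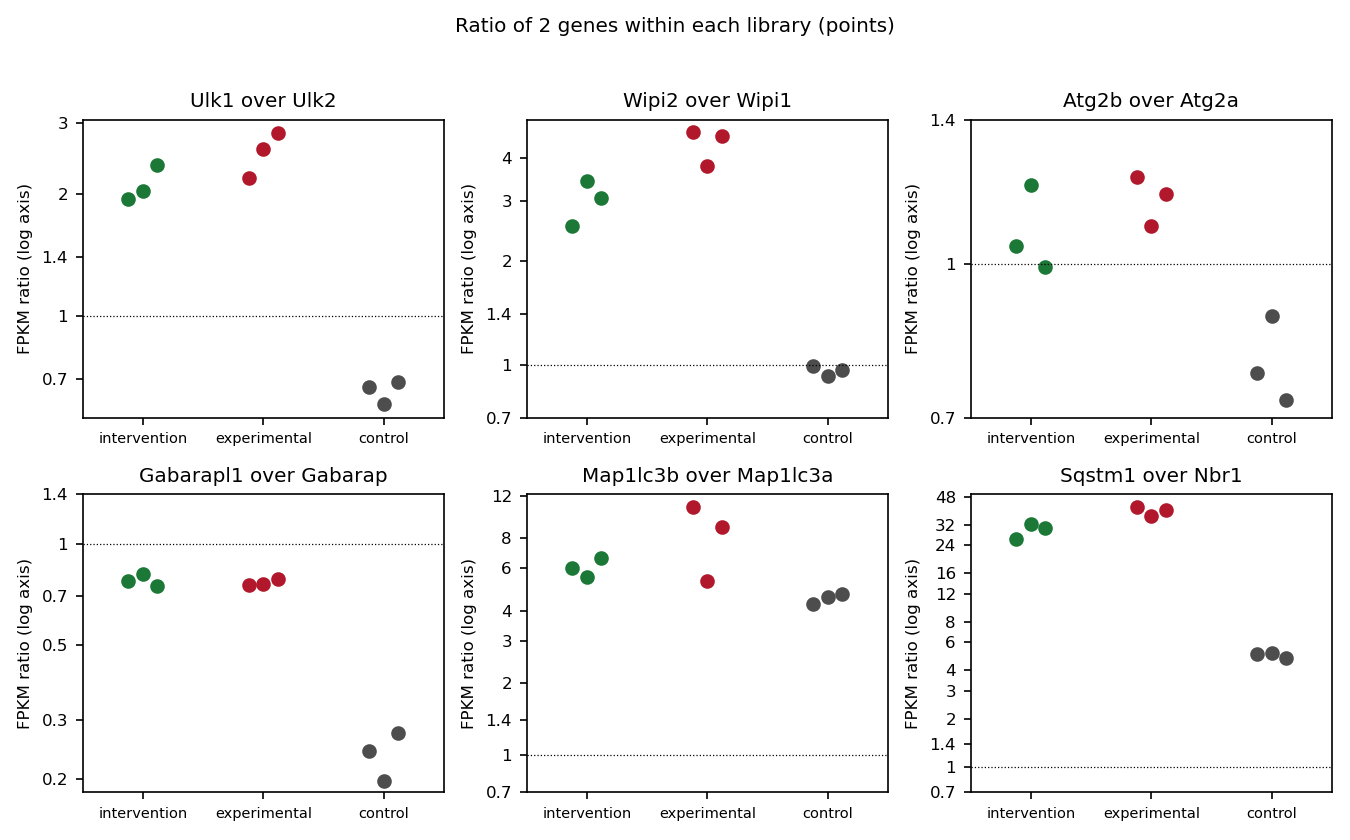
Ratio of the FPKM of 2 related autophagy genes within each library (y axis, log scale, range differing between panels), with 1 point per library and a dotted line at a ratio of 1. Ulk1 over Ulk2 lies at 0.605 to 0.686 in control libraries and above 1 in all others, and Gabarapl1 over Gabarap is below 1 in all 9 libraries.

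Other genes of the pathway were read from 4 lists of 71 genes, of which 64 were tested. Their median difference was -0.25 log2 units between experimental and control libraries, when 13 were called higher and 34 lower (27 and 25 after median-ratio scaling). These counts are to be read against 23.5% and 50.5% of all entries, or 36.6% and 36.4% after that scaling. In intervention against experimental libraries 8 were higher and 2 lower (1 and 6 after median-ratio scaling), with each call named below lost in 3 or more of the 9 fits that left out a library. The shares of all entries in that comparison were 15.9% and 3.6%, or 4.74% and 7.9% after median-ratio scaling. In intervention against control libraries 12 were higher and 31 lower (21 and 21), against 24.1% and 41.1% of all entries (32.7% and 32.4%).

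Among 26 tested genes of mTORC1 and AMPK, the kinases that restrain and promote autophagy, 7 were higher and 13 lower in experimental against control libraries. Of all tested entries, 23.5% were higher and 50.5% lower. Sesn2, a stress-induced inhibitor of mTORC1, had 24.5 ± 3.88 FPKM in intervention, 38.6 ± 3.82 in experimental and 14.4 ± 1.64 in control libraries (differences of 1.36 for experimental against control and -0.64 for intervention against experimental, adjusted p = 3.43e-06 and 0.0153). Akt1s1, the mTORC1 inhibitor PRAS40, and Rheb, the activator of mTORC1, were both higher, by 1.03 and 0.86 in experimental against control libraries (adjusted p at most 7.01e-07). Sesn3 and Castor2, relatives of nutrient sensors of this pathway, were lower, with differences of -0.83 and -0.94. Ddit4, another inhibitor of mTORC1, had 34.5 ± 1.3 FPKM in intervention, 47.3 ± 4.95 in experimental and 44.5 ± 6.33 in control libraries and was called lower in intervention against experimental libraries (a difference of -0.44, adjusted p = 0.0221). After median-ratio scaling the list's counts for experimental against control were 13 higher and 12 lower, against 36.6% and 36.4% of all entries.

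Of 16 tested further autophagy factors, 2 were higher and 10 lower in experimental against control libraries, and 5 each after median-ratio scaling. The shares of all entries were 23.5% and 50.5%, and 36.6% and 36.4% after that scaling. Trp53inp2, which promotes autophagosome formation through LC3, had 5.86 ± 0.775 FPKM in intervention, 5.57 ± 0.343 in experimental and 29.1 ± 1.37 in control libraries and fell by 2.196 log2 units (SE 0.083, adjusted p = 3.69e-08). Its relative Trp53inp1 rose by 0.84 (adjusted p = 1.82e-06). Zfyve1, a marker of the membrane sites where autophagosomes form, and Atg16l2, a relative of Atg16l1, fell, with differences of -0.56 and -0.79 (adjusted p at most 4.84e-05). In intervention against experimental libraries, Tbc1d14 was called higher at 0.27 as deposited (adjusted p = 0.0273) but not after median-ratio scaling (0.18, adjusted p = 0.0818), and Atg4a, the remaining ATG4 protease, differed by 0.29 (adjusted p = 0.062).

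Of 15 tested genes of fusion and tethering, 4 were higher and 7 lower in experimental against control libraries, or 6 and 4 after median-ratio scaling. All entries had shares of 23.5% and 50.5%, or 36.6% and 36.4% after that scaling. Vamp8, the lysosomal SNARE partner of STX17, had 11.8 ± 0.856 FPKM in intervention, 8.7 ± 0.994 in experimental and 18.4 ± 1.61 in control libraries, with differences of -1.003 for experimental against control and 0.41 for intervention against experimental (adjusted p = 3.63e-06 and 0.0191). Vps41, Vps16 and Vps39, subunits of the HOPS tether, differed by -0.92, -0.63 and -0.57 in experimental against control libraries (adjusted p at most 4.5e-05). Vps41 and Vps16 were called higher in intervention against experimental libraries, by 0.30 and 0.25 (limma, adjusted p = 0.016 and 0.0185). Neither call held after median-ratio scaling, whereas that of Vamp8 did.

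Of 7 tested receptors for endoplasmic reticulum and ferritin, 0 were higher and 4 lower in experimental against control libraries (adjusted p under 0.05, limma), and 0 were higher at an unadjusted p under 0.05. At the adjusted threshold, 23.5% of all entries were higher and 50.5% lower. Retreg1, Atl3, Ccpg1 and Tex264, all receptors for endoplasmic reticulum, differed by -1.56, -0.93, -0.94 and -0.43 (adjusted p at most 0.00061). After median-ratio scaling 3 of the 7 were higher and 4 lower, against 36.6% and 36.4% of all entries. Atl3 and Ccpg1 were called higher in intervention against experimental libraries, by 0.20 and 0.31, and neither call held after median-ratio scaling.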

How the data were processed

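Per the labels' protocols, RNA came from an RNeasy extraction and was made into libraries with SMARTER mRNA-Seq reagents. The authors deposited 1 table of FPKM, with 29756 entries and 9 libraries, and the submitters' processing notes name the build mm10. Aligner, counter, annotation and strandedness: not given in the sources used here. Depth is unknown. Low values do not step in whole reads, since 1295 of 8039 non-zero values (16.1%) of genes shorter than 200 nt lay under the worth of a single read at any likely depth.

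FPKM were transformed to log2(FPKM + 1), and the 11974 entries with at least 1 FPKM in at least 3 libraries were fitted with limma 3.58.1 in R 4.3.3 (eBayes with trend), all 9 libraries in 1 fit, with no covariate and Benjamini-Hochberg adjustment over all entries. Of entries sharing a symbol, the one with the highest mean kept it. The genes and lists were chosen with earlier results of these data known. All 41 genes are named. Values of every library are printed for the 21 that differed by at least 0.5 log2 units in a comparison or were highest of their role, and up to 4 genes (2 for intervention against experimental) with the smallest adjusted p are named per further list. The Atg14 promoter and the ratios were chosen after the values were seen. Positions and overlaps came from GENCODE M21 and near-identical copies from blastn 2.17.0. Overlapping exons were found for 14 of the 41 genes and copies for 5 (Rb1cc1, Uvrag, Atg2b, Map1lc3b and Gabarapl2), whose values are uncertain as single genes. Protein sequences are not shown. Alternatives were another pseudocount (0.1), no filter, a mean FPKM of at least 5, 3 other scalings, 2-group fits, no trend, a replicate block and leaving out each of the 9 libraries. On simulated data with 11974 genes, the fit for experimental against control found 27 of 50 genes with a 1.25-fold change, 43 of 50 at 1.5-fold, 48 at 2-fold and all 50 at 4-fold, and called 8 unchanged genes. At 1.25-fold, about the size of the called differences between intervention and experimental libraries, it found 17 of 50 for that comparison and 21 of 50 for intervention against control. The changed genes were drawn only from those with a mean FPKM of at least 5, with independent normal noise. Some of the 41 genes lay below that mean. Far more entries were called in the data, 1906 higher and 431 lower for intervention against experimental. The rates found may therefore not hold for the real fits.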

Additional observations from a re-analysis of the deposited data

How the results depend on the processing

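For experimental against control, 12 higher and 16 lower genes became 22 and 9 after median-ratio scaling, 22 and 10 after quantile normalization, and 12 and 10 with a mean FPKM of at least 5, where 33 genes were tested. Leaving out 1 library gave 11 to 13 higher and 15 to 16 lower. For intervention against control, 14 higher and 12 lower became 23 and 8, 22 and 8, and 14 and 7 in the same settings, and 13 to 14 higher and 9 to 13 lower when 1 library was left out. Over all entries these settings gave 3912 and 3876, 3802 and 3914, and 2264 and 2865 of 7361. Leaving out 1 library gave 2656 to 2870 higher and 4491 to 4915 lower over all entries. For intervention against experimental, 8 higher and 2 lower became 1 and 4 after median-ratio scaling, 1 and 3 after quantile normalization, 5 and 2 as TPM, 4 and 2 with 2 groups only and 1 and 0 without a filter, and leaving out 1 library gave 0 to 10 higher and 0 to 2 lower. Over all entries the calls of that comparison fell as well, to 1535 higher and 414 lower of 11974 as TPM, 1394 and 349 with 2 groups only, 273 and 85 of 29410 without a filter, and 1 to 4 higher and 0 to 3 lower in the fits with no autophagy gene called. They were 567 higher and 946 lower of 11974 after median-ratio scaling, and 451 and 588 after quantile normalization.

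Replicate numbers showed no clear pairing of the samples. Deviations from the group mean correlated at -0.18 to 0.11 for same-numbered libraries and at -0.14 to 0.15 for others. With 3 libraries per group these correlations cannot exclude a pairing. With the replicate block the counts for intervention against experimental were 1 higher and 1 lower (1044 and 224 of all 11974 entries). For experimental against control they were 12 and 16 (2765 and 5967 of all entries), and for intervention against control 13 and 13 (2793 and 4784).

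Between experimental and control libraries, median-ratio and quantile scaling turned the sign of Becn1 (0.23 and 0.15), Pik3c3 (0.045 and 0.068), Atg3 (0.030 and 0.0075) and Atg12 (0.21 and 0.24), and of Atg2a (0.16 and 0.14) and Atg5 (0.15 and 0.098), which were called in none of these fits. Scaling to TPM turned the sign of Vmp1 (-0.038) and Nbr1 (-0.021), neither called as deposited. The cause was not tested. The number of libraries, 3 per group, and the unknown depth limit the precision.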
